A study of Homo sapiens with 24 samples.

Results

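The cytosolic ribosome is built from ribosomal RNA and a set of ribosomal proteins, the RPL proteins of the large subunit and the RPS proteins of the small subunit. Their mRNAs are among the most abundant of dividing cells, and many begin with a terminal oligopyrimidine (TOP) tract, a C followed by a run of C or T at the very 5′ end, through which their translation responds to growth signals. Ribosomal protein mRNAs are usually treated as a coordinated set, so a treatment that moves some members and not others can be read only gene by gene.

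All rows of the raw count table whose gene name is an RPL or RPS number, optionally followed by A or X, were taken, together with RPLP0, RPLP1, RPLP2 and RPSA. This gave 77 of the 58721 rows, 46 of the large and 31 of the small subunit. FAU and RACK1, which also encode parts of the ribosome, do not carry such names and were followed separately. The 24 libraries were 3′ end RNA-seq (one tag per polyadenylated transcript) of 2 human bladder cancer cell lines. RT112 is a line of the luminal papillary subtype, grown in RPMI, and SCaBER a line of the basal/squamous subtype, grown in DMEM, both with serum. Each line was reverse transfected with Lipofectamine RNAiMAX and 1 of 6 small interfering RNA (siRNA) treatments, with 2 replicates of each: the control siRNA number 2 (siControl), siZBED2-1, siZBED2-2, siFOXA1 number 1 (siFOXA1), siFOXA1 with siZBED2-1, and siFOXA1 with siZBED2-2. FOXA1 is a pioneer transcription factor of luminal cells and ZBED2 a zinc finger transcriptional regulator. FOXA1 was targeted with a single siRNA, so an effect of losing FOXA1 and any other effect of that siRNA cannot be told apart. The replicates carry a batch number in the labels, with nothing that names separate cultures, so the tests measure the spread between these libraries, which may be in part technical.

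Libraries held 4425404 to 6119210 counts, and 14121 to 16082 genes had at least 1 count. All 5 epithelial markers checked (EPCAM, KRT8, KRT18, KRT19 and CDH1) exceeded 3 counts in both siControl libraries of each line. The summed level of the 5 luminal markers was 769 to 807 CPM (counts scaled to a library total of 1000000) in RT112 and 76.3 to 82.2 in SCaBER, and that of the 5 basal markers 331 to 390 in RT112 and 2549 to 2628 in SCaBER. KRT20, a luminal marker, was at 0 in both lines, as were CD3E, PTPRC, DCN and PDGFRB, markers of leukocytes and fibroblasts. In the siControl libraries the 3 leukocyte markers summed to 0 CPM in RT112 and 2.00 to 2.27 CPM in SCaBER (CD14), the 3 fibroblast markers to 4.40 to 5.05 and 5.79 to 6.42 CPM (COL1A1), and the 2 endothelial markers, PECAM1 and VWF, to 3.85 to 5.71 and 0.189 to 2.00 CPM.

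FOXA1 stood at 42.2 and 41.3 CPM in the siControl libraries of RT112 and at 6.84 and 9.46 CPM with siFOXA1 (log2 fold change -2.36, SE 0.38, adjusted p = 5.7e-05 in edgeR's quasi-likelihood test; later values are given as estimate ± SE). In SCaBER FOXA1 was low to begin with, at 3.78 and 5.59 CPM, and was at 0.816 and 1.36 CPM with siFOXA1, a difference that did not pass the test (log2 fold change -2.09 ± 1.23, adjusted p = 0.27 in edgeR). ZBED2 stood at 22.2 and 16.9 CPM in RT112 siControl libraries, at 2.38 and 0 CPM with siZBED2-1 and at 7.33 and 6.25 CPM with siZBED2-2. In SCaBER ZBED2 stood at 19.1 and 19.2 CPM with siControl, at 2.40 and 7.34 CPM with siZBED2-1 and at 8.86 and 16.0 CPM with siZBED2-2. Against siControl siZBED2-1 lowered ZBED2 past the threshold in both lines. The fall with siZBED2-2 did not pass it in either (adjusted p = 0.9 in RT112 and 0.84 in SCaBER). In RT112 ZBED2 itself fell with siFOXA1 alone, to 5.43 and 1.51 CPM (log2 fold change -2.48 ± 0.84, adjusted p = 0.033 in edgeR).

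Of the 77 members, 76 were tested in each line. A few rows were sparse: RPL17 held 0 to 28 counts per library, RPS10 18 to 89, RPL36A 31 to 187 and RPS9 65 to 220. Fold changes of RPL17, which rest on single counts, are given nowhere below. The table also lists 1133 named ribosomal protein pseudogenes, whose rows together took 0.160% to 0.350% of counts. Reads of a member and of its near-identical copies may have been split between rows, so the values of members with many copies are less certain.

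Many members shared a sequence feature at the start of their genes. RefSeq promoter entries (GRCh38.p14) were found for 62 of the 77 members, and 46 of these (74.2%) had at least 1 annotated start with a C followed by at least 4 bases that are each C or T on the strand of the gene. Among all 27305 genes with an entry the share was 5.14%. The windows below run from 10 bases before the annotated start to 20 bases from it, in lower case with the pyrimidine run in capitals. They are shown for RPS6, RPL12, RPL14, RPL10, RPS4X and RPL28, which were among the members with the largest falls with siFOXA1 in RT112, for RPL35A and RPS24, which were not called there, and for RPLP0, which rose with the ZBED2 siRNAs. RPS4X also fell with siZBED2-1.

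RPS6, small subunit, chr9:19380217-19380246, minus strand: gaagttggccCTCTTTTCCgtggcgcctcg
RPL12, large subunit stalk base, chr9:127451387-127451416, minus strand: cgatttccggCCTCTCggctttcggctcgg
RPL14, large subunit, chr3:40457329-40457358, plus strand: ggtcttcttcCTTCTCgcctaacgccgcca
RPL10, large subunit, chrX:154398367-154398396, plus strand, 1 of several annotated starts: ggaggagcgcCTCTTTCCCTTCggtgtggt
RPL28, large subunit, chr19:55385922-55385951, plus strand: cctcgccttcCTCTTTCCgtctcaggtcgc
RPL35A, large subunit, chr3:197950180-197950209, plus strand: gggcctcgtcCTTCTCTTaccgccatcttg
RPS24, small subunit, chr10:78033853-78033882, plus strand: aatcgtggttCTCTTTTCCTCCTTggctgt
RPLP0, large subunit stalk, chr12:120201092-120201121, minus strand: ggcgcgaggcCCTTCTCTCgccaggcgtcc
RPS4X, small subunit, chrX:72277229-72277258, minus strand: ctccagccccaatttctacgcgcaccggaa

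A pyrimidine run stood at the start of most members with an entry, among those that fell with siFOXA1 and among the others. Of the members that were lower with siFOXA1 in RT112 and had an entry, 18 of 23 (78.3%) had such a start. Of the other tested members with an entry, 28 of 39 (71.8%) did. RPS4X, which fell with siFOXA1 in RT112, had no match at its annotated start, which says only that these letters are not in that place. No entry was found for RPS2, RPL5, RPL23A or RPL30, among others.

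In RT112 the members took 7.69% and 8.53% of all counts in the siControl libraries. With siFOXA1 alone they took 6.20% and 5.77%, less than in any other RT112 library. The share was 7.71% and 8.51% with siFOXA1 and siZBED2-1, 7.50% and 7.90% with siFOXA1 and siZBED2-2, 8.21% and 7.76% with siZBED2-1, and 8.52% and 8.48% with siZBED2-2. The 2 siFOXA1 libraries of RT112 therefore lay apart from all 10 others of the line, and the double knock-downs lay within the range of libraries that received no siFOXA1 or just below it.

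In SCaBER the share was 9.15% and 9.63% with siControl and 8.46% and 8.52% with siFOXA1, again the lowest of the line. It was 9.69% and 10.3% with siFOXA1 and siZBED2-1, 9.51% and 10.1% with siFOXA1 and siZBED2-2, 8.88% and 9.78% with siZBED2-1 and 9.26% and 9.74% with siZBED2-2. The mitochondrial transcripts, a further large part of each library, moved at the same time: in RT112 they took 17.8% and 12.2% of counts with siControl and 21.4% and 22.7% with siFOXA1, but also 18.6% to 20.6% in the double knock-downs. With these transcripts left out of the total, the members took 9.35% and 9.72% in RT112 with siControl and 7.90% and 7.47% with siFOXA1, and 10.1% and 10.8% against 9.71% and 9.75% in SCaBER.

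**Figure D1:**
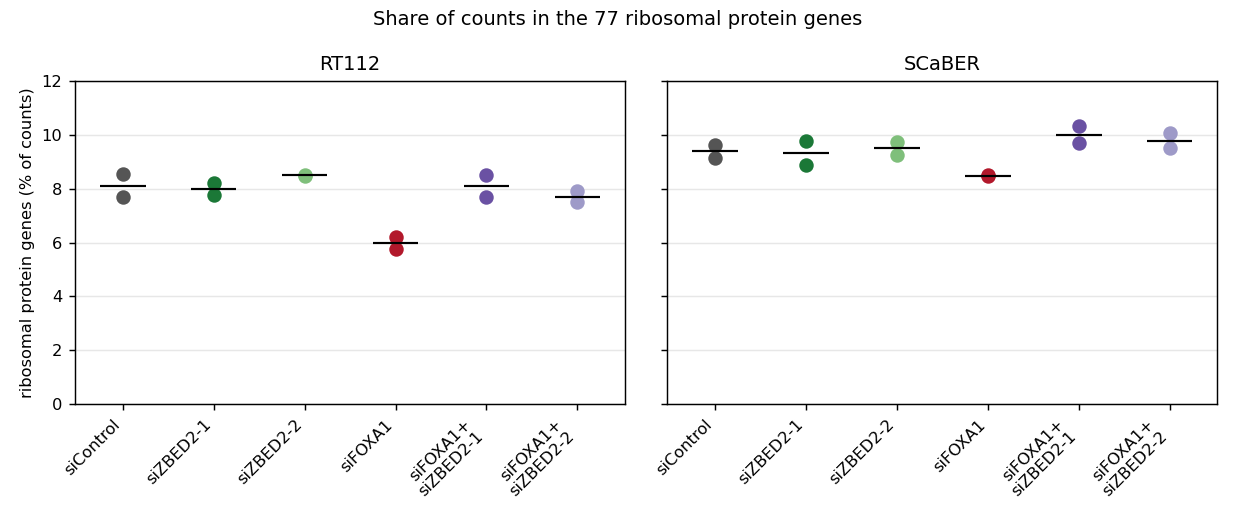
Share of counts (percent, y axis) taken by the 77 ribosomal protein genes in each library, by treatment (x axis), in RT112 (left) and SCaBER (right). Each point is a library and each bar the mean of 2. The siFOXA1 libraries are the lowest of each line, at 5.77% and 6.20% in RT112 and 8.46% and 8.52% in SCaBER.

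The first question was what the FOXA1 siRNA did to the members on its own. In RT112 it lowered part of the set by unequal amounts: 32 of 76 members fell (42.1%) and the median log2 fold change over the 76 was -0.34, where the median over all 13264 genes tested was -0.01. Over all genes 11.9% fell and 11.3% rose, whereas no member passed edgeR's test as higher, nor DESeq2 or limma on log2(TPM + 1), which called 36 and 37 lower. Of the members, 46 had an unadjusted p below 0.05 in edgeR. Both subunits were affected, with 18 of 46 large subunit and 14 of 30 small subunit members lower. RPS2, a small subunit protein at the entry of the mRNA channel, stood apart from the rest. Both siFOXA1 libraries lay below both siControl libraries for 58 of the 76 members (76.3%), as they did for 31.7% of all genes tested.

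RPS2 was at 1749 and 1735 CPM in the RT112 siControl libraries and at 491 and 328 CPM with siFOXA1. The groups were far apart, by 4.25-fold (log2 fold change -2.09 ± 0.16, adjusted p = 6.6e-10 in edgeR). RPS6, the small subunit protein phosphorylated by S6 kinase, was at 1910 and 2150 CPM with siControl and at 1007 and 974 CPM with siFOXA1 (log2 fold change -1.04 ± 0.11, adjusted p = 2.9e-07 in edgeR). RPL12, a protein of the base of the large subunit stalk, was at 574 and 592 CPM with siControl and at 308 and 245 CPM with siFOXA1 (-1.07 ± 0.13). In none of these 3 genes did the groups overlap, which was a condition for naming the members with the smallest p.

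RPL14 went from 575 and 596 CPM to 337 and 308 CPM (log2 fold change -0.86 ± 0.12), and RPL10, a late-joining protein of the large subunit, from 755 and 841 CPM to 512 and 405 CPM (-0.80 ± 0.13). RPS12 fell by 0.74 ± 0.12 and RPS4X, the X-linked copy of that small subunit protein, by 0.74 ± 0.13 on the log2 scale. RPS3, which lines the mRNA entry channel beside RPS2, went from 1164 and 1310 CPM to 774 and 756 CPM, and RPL28 from 474 and 433 CPM to 291 and 269 CPM. These genes were called with adjusted p between 1.1e-05 and 3e-04. RPSA, the laminin receptor protein of the small subunit, fell by 0.60 ± 0.15 and RPS14, which is lost in the 5q- syndrome, by 0.49 ± 0.12, but neither passed the test without siFOXA1 replicate 2 (adjusted p = 0.11 for RPSA and 0.05 for RPS14). The number of members lower was 18 without that library and 20 without siControl replicate 2.

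Other members did not pass the test in RT112 with siFOXA1. RPLP0, the scaffold of the stalk, was at 768 and 791 CPM with siControl and at 875 and 844 CPM with siFOXA1 (log2 fold change 0.14 ± 0.11, adjusted p = 0.42 in edgeR). Its partner RPLP1 was lower (-0.43 ± 0.11, adjusted p = 0.0045 in edgeR, and 0.07 without siFOXA1 replicate 2), while RPLP2 was not called (-0.05 ± 0.13). RPL5 and RPL11, which with the 5S RNA restrain MDM2, had log2 fold changes of -0.31 ± 0.12 (adjusted p = 0.061 in edgeR, 0.037 with the replicate number as a block) and 0.11 ± 0.12. RPS19, the member most often mutated in Diamond-Blackfan anaemia, was at 1680 and 1840 CPM with siControl and 1765 and 1828 CPM with siFOXA1, so that the groups overlapped. RPS26 (-0.07 ± 0.15), RPL22 (0.00 ± 0.17), RPL41 (-0.20 ± 0.15) and RPL13A (-0.26 ± 0.12) did not pass either. Of 8 tested members at the exit tunnel of the large subunit, among them RPL4, RPL23A, RPL31 and RPL35, 4 fell. Of all 76 members 32 (42.1%) fell, and of all genes tested 11.9%. For 11 tested members listed as mutated in Diamond-Blackfan anaemia the median was -0.07 on the log2 scale, with values between -0.35 and 0.11. That list may not hold every member mutated in the disease.

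In SCaBER the same siRNA moved fewer members and in both directions. Of 76 members 11 fell (14.5%, against 9.12% of all 13129 genes tested) and 4 rose (5.26%, against 8.71% of all genes), and the median log2 fold change was -0.07. With scaling to library size alone the split was 15 lower and none higher, so the 4 rises depend on the scaling. With only the groups compared in the fit, 8 were lower and none higher. Both siFOXA1 libraries lay below both siControl libraries for 28 members (36.8%), where 28.3% of all genes did so.

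RPS2 was again set apart. It was at 2789 and 2675 CPM in the SCaBER siControl libraries and at 786 and 777 CPM with siFOXA1, a 3.50-fold difference (log2 fold change -1.81 ± 0.11, adjusted p = 4e-14 in edgeR). RPL10 went from 598 and 648 CPM to 320 and 415 CPM (-0.76 ± 0.12). RPL28 went from 453 and 458 CPM to 313 and 314 CPM (-0.54 ± 0.11), and RPL12 from 985 and 1008 CPM to 718 and 671 CPM (-0.52 ± 0.10). RPL36 fell by 0.48 ± 0.10 and RPS6 by 0.42 ± 0.10 on the log2 scale. All 6 of these members had also fallen in RT112.

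The members called higher in SCaBER were RPL30, RPL35A, RPS27A and RPS24. RPL35A was at 1086 and 1177 CPM with siControl and at 1433 and 1344 CPM with siFOXA1 (log2 fold change 0.30 ± 0.10, adjusted p = 0.029 in edgeR). RPS24 was at 1467 and 1527 CPM with siControl and at 1807 and 1804 CPM with siFOXA1 (0.27 ± 0.09, adjusted p = 0.036 in edgeR). For RPL30 the groups overlapped at the edge, with 1615 and 2208 CPM against 2198 and 2644 CPM. Without siControl replicate 1 no member of SCaBER was called higher and 9 were lower, and RPL35A, RPS24 and RPS27A then had adjusted p of 0.24, 0.21 and 0.26 in edgeR.

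The RPS2 result was checked against its copies. The 20 named RPS2 pseudogene rows held 303 and 370 counts in the RT112 siControl libraries and 101 and 56 with siFOXA1, and so were lower there too. RPS2 itself held at least 1524 counts in every library.

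**Figure D2:**
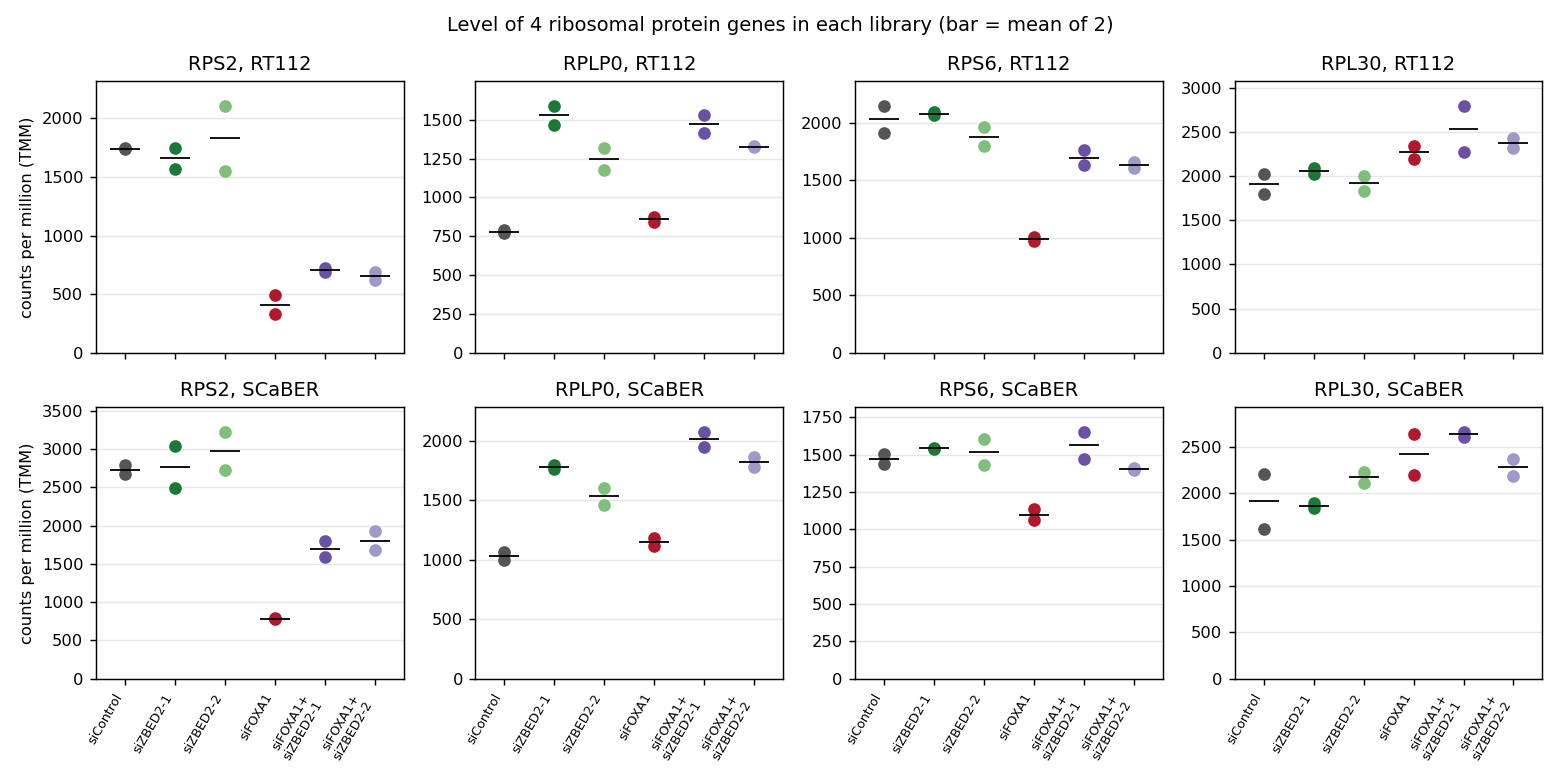
Level (TMM-scaled CPM, y axes starting at 0) of RPS2, RPLP0, RPS6 and RPL30 in each library of RT112 (top) and SCaBER (bottom), by treatment. Points are libraries and bars means of 2. RPS2 falls to 328 to 491 CPM in RT112 and 777 to 786 CPM in SCaBER with siFOXA1, and RPLP0 is above its siControl level in every library that received a ZBED2 siRNA.

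The order of the members was alike in the 2 lines, whose libraries are separate. Of the 11 members lower in SCaBER, 10 (90.9%) were among the 32 lower in RT112, and these were 31.3% of the RT112 list: RPL4, RPL10, RPL12, RPL18, RPL23, RPL23A, RPL28, RPL36, RPS2 and RPS6. RPL7A was lower only in the SCaBER list. Across the 71 members above 100 CPM in both lines, the log2 fold changes had a Pearson r of 0.826 and a Spearman rho of 0.698. Without RPS2 the values over 70 members were 0.707 and 0.685. Genes are not independent replicates, and the points share the siRNA, the depth of each library and its scaling. No overlap or correlation over all genes is given here or below, so neither is shown to be particular to the members. The response did not follow abundance: against the mean level in the 4 siZBED2 libraries of the same line, Spearman's rho was 0.01 in RT112 and -0.01 in SCaBER.

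The lines differed in the size of the response. In a joint fit the log2 fold change of 4 members was more negative in RT112 than in SCaBER. Of all 14823 genes 1.41% were higher and 1.17% lower in this difference. With the replicate number as a block 10 members were called. RPS27A had the smallest adjusted p of the 4 in edgeR, and its estimates had opposite signs in the lines. It went from 2898 and 3074 CPM to 2335 and 2240 CPM in RT112 (log2 fold change -0.38 ± 0.11, adjusted p = 0.012 in edgeR) and from 2495 and 2759 CPM to 3239 and 3159 CPM in SCaBER (0.28 ± 0.10, adjusted p = 0.034 in edgeR). The rise of RPS27A in SCaBER was not called with scaling to library size alone or with only the groups compared. Nor was it called without SCaBER siControl replicate 1. The difference between lines was 0.67 ± 0.15 (adjusted p = 0.009 in edgeR). For RPS12 it was 0.77 ± 0.18, for RPL14 0.66 ± 0.16 and for RPS6 0.62 ± 0.15, while for RPS2 no difference was called. Only 1 of the 4 remained past the threshold without RT112 siControl replicate 2, without RT112 siFOXA1 replicate 2 or without SCaBER siControl replicate 1.

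**Figure D3:**
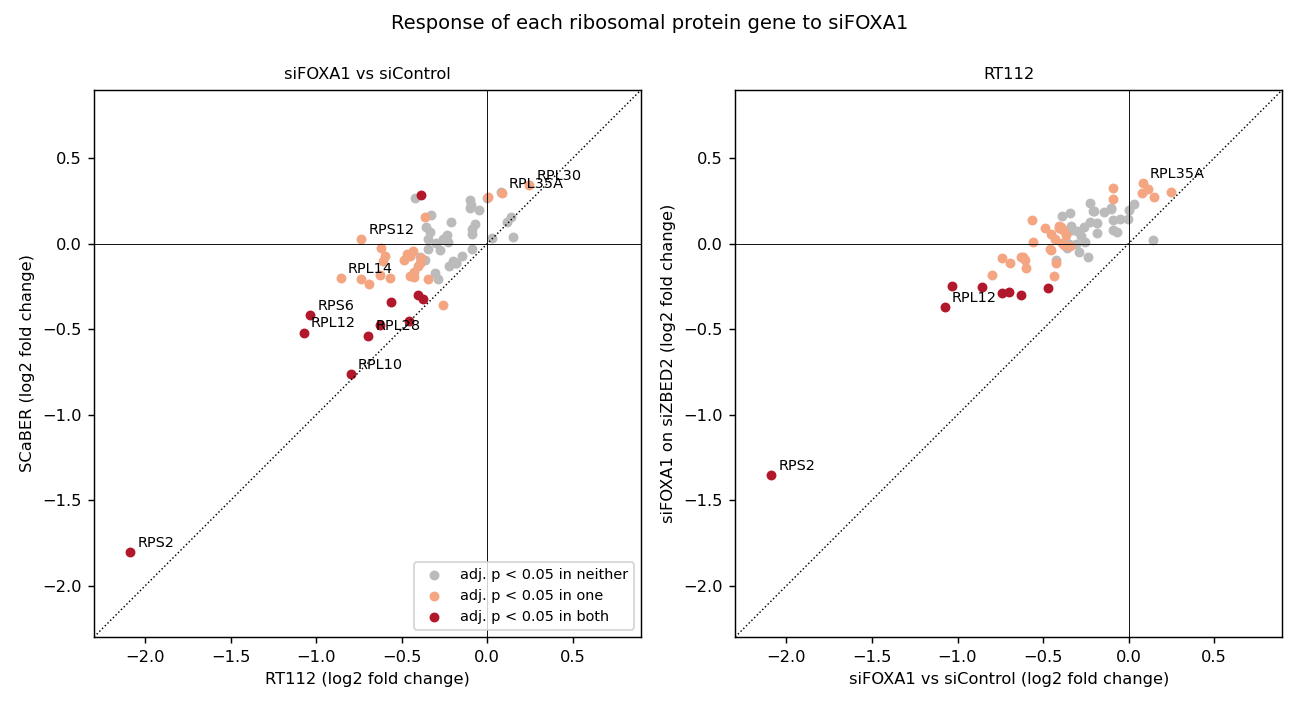
Log2 fold change with siFOXA1 of the 71 members above 100 CPM. Left, RT112 (x axis) against SCaBER (y axis). Right, RT112 without (x axis) and with (y axis) a ZBED2 siRNA. Colour gives whether the adjusted p was below 0.05 in both, one or neither comparison, and the dotted line marks equal change. RPS2 is the lowest point in both panels, and most points lie above the line.

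The second comparison asked what siFOXA1 did in cells that also received a ZBED2 siRNA, by setting the 4 double knock-down libraries of a line against its 4 siZBED2 libraries. None of these libraries enters the comparison with siControl. In RT112, 8 members were higher and 8 lower (10.5% each), where 9.88% of all genes rose and 10.2% fell, and the median was 0.07. With scaling to library size alone the split was 1 higher and 10 lower and the median -0.03, so the direction of the set as a whole was not settled here. All 8 members that were lower were among the 32 lower with siFOXA1 alone, of which they were 25%: RPL12, RPL14, RPL28, RPL36, RPS2, RPS6, RPS12 and RPS20.

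RPS2 again had the largest fall. In RT112 it was at 1552 to 2108 CPM in the 4 siZBED2 libraries and at 622 to 723 CPM in the 4 double knock-down libraries (log2 fold change -1.35 ± 0.11, adjusted p = 1.9e-09 in edgeR). In SCaBER it was at 2492 to 3227 CPM against 1589 to 1931 CPM (-0.71 ± 0.07, adjusted p = 1e-08 in edgeR). RPL12 fell by 0.37 ± 0.09, RPL36 by 0.30 ± 0.09 and RPS6 by 0.25 ± 0.08 on the log2 scale in RT112. RPS6 lost its call when any of 6 of the 8 libraries was left out, and the count of members called in RT112 was 6 to 15 over these omissions, lowest without replicate 2 of siFOXA1 with siZBED2-2.

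Members that rose in this comparison were RPL35A (0.35 ± 0.08 in RT112), RPL11 (0.32 ± 0.08), RPS13 (0.32 ± 0.09), RPL30 (0.30 ± 0.08), RPS27 (0.27 ± 0.09), RPL27A, RPL26 and RPL22. RPL11 was at 860 to 979 CPM in the siZBED2 libraries of RT112 and at 1049 to 1325 CPM in the double knock-downs. With scaling to library size alone RPL11, RPL30, RPS13 and RPS27 did not pass (adjusted p = 0.083 to 0.19). In SCaBER 12 members were higher (15.8%, against 5.24% of all genes) and 3 lower (3.95%, against 4.90%), and 20 and 5 with the replicate number as a block. With scaling to library size alone 9 were higher and 5 lower. RPL3 (0.37 ± 0.08), RPL35A (0.32 ± 0.07), RPL24 (0.31 ± 0.07), RPS24 (0.26 ± 0.06) and RPS27A (0.27 ± 0.07) rose, and RPS2, RPL28 and RPL36 fell. The SCaBER count was 9 without siZBED2-2 replicate 1 and 8 without replicate 2 of siFOXA1 with siZBED2-1. The members higher in both lines were RPL11, RPL27A, RPL30, RPL35A and RPS13, which were 62.5% of the RT112 list and 41.7% of the SCaBER list.

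The order of the members was similar with and without a ZBED2 siRNA. Over the 71 members above 100 CPM the log2 fold changes of siFOXA1 against siControl and of siFOXA1 on siZBED2 had a Pearson r of 0.895 in RT112 and 0.891 in SCaBER, and 0.828 and 0.834 without RPS2. Spearman's rho was 0.804 and 0.835. The change with a ZBED2 siRNA was less negative. The difference between these responses was fitted as an interaction, an analysis chosen after seeing the data. In RT112 it was called for 4 members, RPS6 (0.79 ± 0.14), RPL10A (0.71 ± 0.15), RPL12 (0.70 ± 0.16) and RPS4X (0.65 ± 0.15), against 0.309% of all genes higher, and for 15 members with the replicate number as a block. In SCaBER it was called for RPS2 (1.09 ± 0.13, adjusted p = 2.3e-06 in edgeR) and RPL23A (0.53 ± 0.15), against 1.07% of all genes, and for 7 members with the block. RPS2 in RT112 had an interaction of 0.73 ± 0.19 that did not pass (adjusted p = 0.07 in edgeR). Without RT112 siControl replicate 2 or siFOXA1 replicate 2 the RT112 count was 0, by edgeR.

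The FOXA1 levels of the siFOXA1 and double knock-down libraries of RT112 overlapped. FOXA1 was at 4.04 and 11.3 CPM with siZBED2-1 added and at 15.6 and 9.91 CPM with siZBED2-2 added, beside 6.84 and 9.46 CPM with siFOXA1 alone. The amount of each siRNA in the double transfections was not given in the sources used here, and its part in the members' values was not tested.

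The third question was what the ZBED2 siRNAs did alone, against siControl. Few members passed the test, at most 3 of 76 in a comparison, and RPLP0 was the one called in all 4. In RT112 it was at 768 and 791 CPM with siControl, at 1591 and 1469 CPM with siZBED2-1 and at 1316 and 1174 CPM with siZBED2-2. These are 1.96-fold (log2 fold change 0.97 ± 0.11, adjusted p = 2.5e-06 in edgeR) and 1.60-fold (0.68 ± 0.11, adjusted p = 0.0041 in edgeR) higher. In SCaBER RPLP0 was at 998 and 1065 CPM with siControl, at 1766 and 1797 CPM with siZBED2-1 (0.79 ± 0.09) and at 1466 and 1606 CPM with siZBED2-2 (0.57 ± 0.09). All 8 libraries with a ZBED2 siRNA alone lay above the siControl libraries of their line. The siZBED2-2 call of RT112 did not hold without siControl replicate 1 (adjusted p = 0.063 in edgeR). Limma on log2(TPM + 1) did not call RPLP0 with siZBED2-2 in either line (adjusted p = 0.32 in RT112 and 0.13 in SCaBER).

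RPLP0 is often used as a reference gene in quantitative PCR. Its stalk partners did not pass the test with either ZBED2 siRNA: RPLP1 had log2 fold changes of 0.04 ± 0.11 and 0.08 ± 0.11 in RT112 and RPLP2 of 0.00 ± 0.13 and 0.10 ± 0.13. The 5 named RPLP0 pseudogene rows held at most 87 counts in any library, beside at least 3494 counts of RPLP0.

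RPS4X was lower with siZBED2-1, at 561 and 657 CPM with siControl and 437 and 405 CPM with the siRNA in RT112 (log2 fold change -0.53 ± 0.13, adjusted p = 0.0066 in edgeR). In SCaBER it was at 565 and 580 CPM against 419 and 411 CPM (-0.46 ± 0.11, adjusted p = 0.008 in edgeR). With siZBED2-2 it was at 592 and 585 CPM in RT112 and 534 and 550 CPM in SCaBER. RPL24 was lower with siZBED2-1 in RT112 (-0.42 ± 0.13) and RPL27A with siZBED2-2 in SCaBER, at 1275 and 1445 CPM against 1888 and 1851 CPM (-0.46 ± 0.10). The calls of RPS4X, RPL24 and RPL27A were lost when single libraries were left out, with adjusted p up to 0.14 for RPS4X, 0.30 for RPL24 and 0.33 for RPL27A in edgeR. In all, siZBED2-1 raised 1 member and lowered 2 in RT112 (against 4.35% of all genes higher and 4.45% lower; 2 and 3 with the replicate number as a block) and raised 1 and lowered 1 in SCaBER (2.19% and 2.45%). With siZBED2-2 RPLP0 was the 1 member called in RT112 (0.136% of all genes higher and 0.0302% lower), and in SCaBER 1 member was higher and 1 lower (0.427% and 0.198%).

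The ZBED2 siRNAs were also compared with each other, since they share a target. RPL27A was higher with siZBED2-1 than with siZBED2-2 in both lines, by 0.49 ± 0.12 in RT112 (adjusted p = 0.0091 in edgeR) and by 0.46 ± 0.10 in SCaBER (adjusted p = 0.004 in edgeR) on the log2 scale. RPS4X was lower with siZBED2-1 than with siZBED2-2 in both, by -0.48 ± 0.12 and -0.39 ± 0.11. For RPL27A the RT112 libraries stood at 1076 and 941 CPM with siZBED2-1 and 721 and 716 CPM with siZBED2-2. RPL14 and RPL24 were lower with siZBED2-1 in RT112 alone. These were all the calls, 1 higher and 3 lower in RT112 (3.77% and 4.0% of all genes) and 1 and 1 in SCaBER (1.61% and 2.4%; 2 and 3 with the replicate number as a block). The counts were 1 or 2 in RT112 and 0 or 1 in SCaBER by edgeR when any of the siZBED2 libraries was left out.

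Adding a ZBED2 siRNA to siFOXA1 gave a broad pattern among the members instead. ZBED2, already lower with siFOXA1 alone in RT112, was not called lower still there with either siRNA. Its log2 fold change was -1.06 with siZBED2-1 and -0.999 with siZBED2-2 (adjusted p = 0.65 and 0.69 in edgeR). In SCaBER it was -2.84 with siZBED2-1 (adjusted p = 0.00054 in edgeR) and -0.854 with siZBED2-2 (adjusted p = 0.37 in edgeR). Whether the members rose through loss of ZBED2 was not tested. With siZBED2-1 in RT112, 34 of 76 members were higher than with siFOXA1 alone (44.7%, against 1.55% of all genes) and the median log2 fold change was 0.43. With siZBED2-2 it was 11 (14.5%, against 0.897%), with a median of 0.34, and 21 with the replicate number as a block. In SCaBER 11 members were higher with siZBED2-1 (14.5%, against 1.35%) and 7 with siZBED2-2 (9.21%, against 2.25%), and 19 for siZBED2-1 with the block. No member was called lower by edgeR, DESeq2 or limma in these 4 comparisons, where edgeR called 0.995% and 0.354% of all genes lower in RT112 and 1.39% and 1.41% in SCaBER, and 65, 49, 35 and 23 members had an unadjusted p below 0.05 in edgeR. They share the siFOXA1 libraries with the comparison of siFOXA1 with siControl, and so the values are given side by side and no agreement between them is drawn. All 4 double knock-down libraries lay above both siFOXA1 libraries for 64 members in RT112 (84.2%, against 10.6% of all genes) and for 39 in SCaBER (51.3%, against 10.8%).

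RPS6 was at 1007 and 974 CPM with siFOXA1 in RT112, at 1637 and 1761 CPM with siZBED2-1 added (log2 fold change 0.78 ± 0.11) and at 1605 and 1663 CPM with siZBED2-2 added (0.72 ± 0.11). RPS12 was 0.81 ± 0.12 and 0.56 ± 0.12 higher on the log2 scale and RPL10A 0.69 ± 0.12 and 0.63 ± 0.12. RPS2 stood at 689 and 723 CPM and at 693 and 622 CPM, above the 491 and 328 CPM with siFOXA1 alone and well below the 1735 to 1749 CPM with siControl. In SCaBER RPS2 was at 1589 and 1802 CPM with siZBED2-1 added (1.12 ± 0.11, adjusted p = 1.6e-08 in edgeR) and at 1676 and 1931 CPM with siZBED2-2 added (1.21 ± 0.11, adjusted p = 6.7e-09 in edgeR). RPLP0 rose on siFOXA1 as it had on siControl, by 0.78 ± 0.11 and 0.63 ± 0.11 in RT112 and by 0.81 ± 0.09 and 0.66 ± 0.09 in SCaBER.

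These counts leaned on few libraries and on the tool. Without RT112 siFOXA1 replicate 2, which had the lowest share of member counts, 10 members were called with siZBED2-1 and 1 with siZBED2-2. Without replicate 2 of siFOXA1 with siZBED2-1 the siZBED2-1 count of RT112 was also 10, and without replicate 1 or 2 of siFOXA1 with siZBED2-2 the siZBED2-2 count was 5 or 4. In SCaBER the siZBED2-1 count was 3 without replicate 2 of that double knock-down, and the siZBED2-2 count was 3 or 4 without replicate 2 or 1 of its own and 4 without siFOXA1 replicate 2. Limma on log2(TPM + 1) called no member in RT112 for either siRNA, with 40 and 44 members at an unadjusted p below 0.05, and DESeq2 called 27 for siZBED2-2. Of the members higher with siZBED2-1 in SCaBER, 10 of 11 (90.9%) were among the 34 of RT112, of which they were 29.4%.

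**Figure D4:**
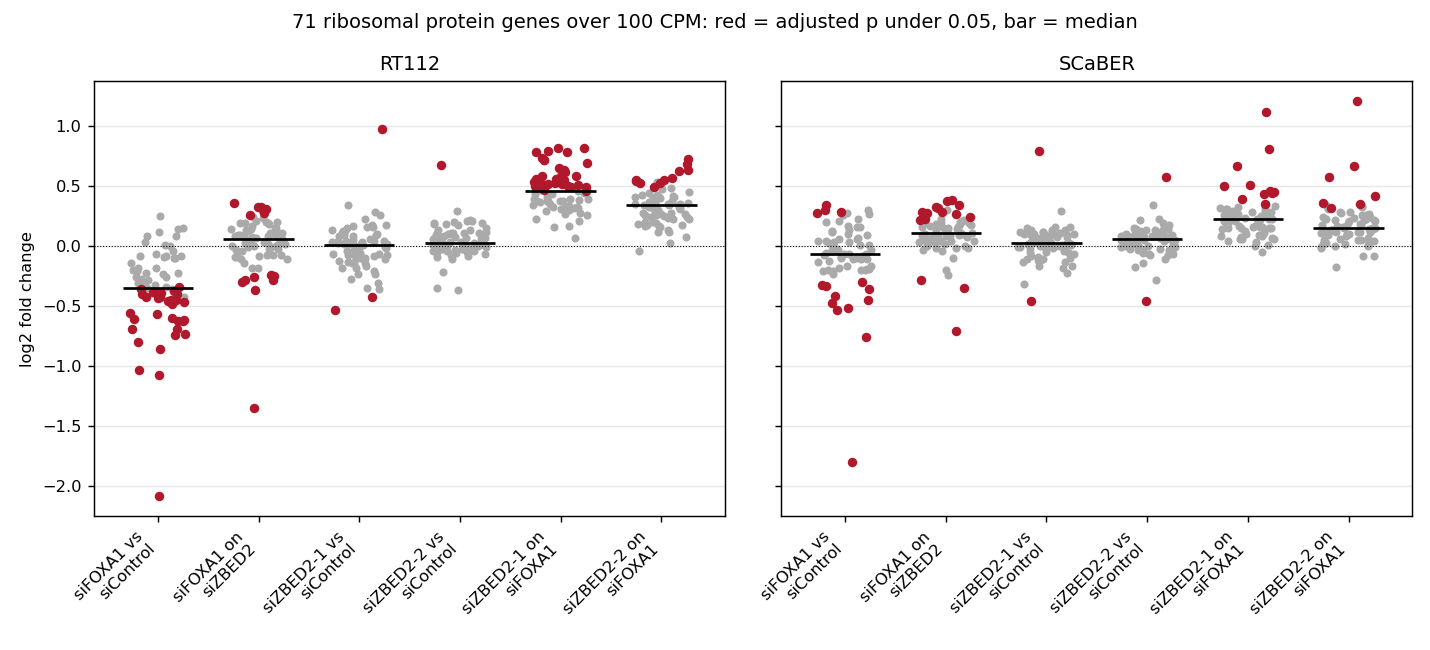
Log2 fold change (y axis) of the 71 members above 100 CPM in 6 comparisons (x axis) in RT112 (left) and SCaBER (right). Red points have an adjusted p below 0.05, bars are medians of the points, and points are spread sideways only to be seen. The points shift down with siFOXA1 in RT112 and up when a ZBED2 siRNA is added to siFOXA1, while with a ZBED2 siRNA alone RPLP0 is the single point well above the others.

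The lines also differed in their members before any knock-down. In the siControl libraries 24 members were higher in SCaBER (31.6%, against 17.2% of all genes) and 12 higher in RT112 (15.8%, against 16.4%), whereas limma on log2(TPM + 1) called 37 and 3. RPL5 was at 1023 and 1044 CPM in RT112 and 5144 and 5134 CPM in SCaBER on a common scale (log2 difference 2.31 ± 0.10, adjusted p = 9.9e-19 in edgeR), and the groups were far apart. RPL11, its partner in the 5S particle, differed by 0.38 ± 0.11. RPS3 (1.11 ± 0.11), RPLP2 (1.06 ± 0.11), RPL27A (1.01 ± 0.11) and RPL12 (0.76 ± 0.11) were also higher in SCaBER, and RPL22 (-1.19 ± 0.18), RPL9 (-1.13 ± 0.12) and RPS28 (-0.63 ± 0.11) were higher in RT112. Without SCaBER siControl replicate 2, 14 members were higher in SCaBER and 8 in RT112, and without RT112 siControl replicate 1 it was 13 and 10. The lines also differ in medium, and line and medium cannot be told apart.

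**Figure D5:**
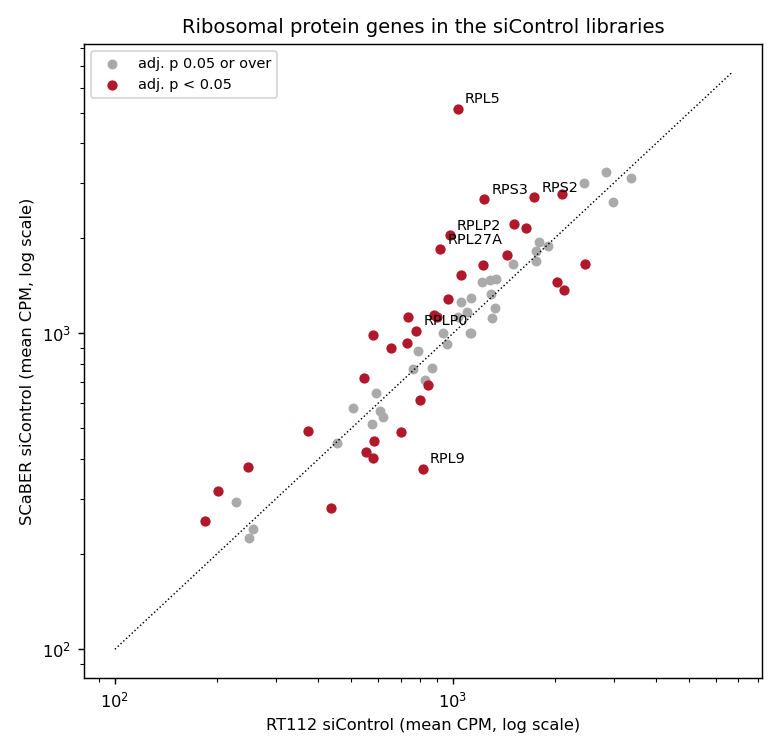
Mean level of 71 members in the siControl libraries of RT112 (x axis) and SCaBER (y axis), in CPM on log scales. Each point is a member, red where the adjusted p was below 0.05, and the dotted line marks equal levels. RPL5 is the point farthest from the line, at 1034 CPM in RT112 and 5139 CPM in SCaBER.

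Genes near the set were followed in the same fits. FAU, which encodes a ribosomal protein fused to a ubiquitin-like protein, and RACK1, a scaffold on the small subunit, had log2 fold changes with siFOXA1 of -0.20 ± 0.11 and -0.19 ± 0.13 in RT112 and 0.12 ± 0.09 and -0.13 ± 0.13 in SCaBER, neither past the threshold. Among the paralogs of ribosomal proteins RPS27L, a p53 target, and RPL26L1 rose with siFOXA1 in SCaBER (0.55 ± 0.14 and 0.86 ± 0.24). In RT112 they had 0.39 ± 0.18 and 0.60 ± 0.26, which did not pass (adjusted p = 0.13 and 0.099 in edgeR), beside RPL36AL at 0.28 ± 0.14, RPL22L1 at -0.37 ± 0.23 and RPL7L1 at 0.00 ± 0.15. In SCaBER RPL36AL (0.35 ± 0.13), RPL22L1 (0.24 ± 0.21), RPL7L1 (0.09 ± 0.14) and RPL39L (-0.27 ± 0.46) did not pass.

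The lists below are to be read against all genes tested, of which 11.3% rose and 11.9% fell with siFOXA1 in RT112 and 8.71% rose and 9.12% fell in SCaBER. Of 13 tested genes of the translation apparatus and others that carry TOP tracts but encode no ribosomal protein, 2 rose and 3 fell with siFOXA1 in RT112 (median -0.05), and 2 fell in SCaBER (median -0.23). NPM1, a nucleolar chaperone of ribosomal proteins, fell by 0.99 ± 0.12 in RT112 and by 1.48 ± 0.11 in SCaBER, and HNRNPA1, an RNA-binding protein, by 0.92 ± 0.15 and 0.74 ± 0.13. In RT112 EIF4B rose by 0.50 ± 0.17 and EIF3H by 0.38 ± 0.13. Of 55 ribosome biogenesis genes, 6 rose (10.9%) and 7 fell (12.7%) in RT112 (median -0.15), shares near those of all genes. In SCaBER 5 rose (9.09%) and 12 fell (21.8%), with a median of -0.22. TRMT112, a partner of ribosomal RNA methyltransferases, fell by 2.16 ± 0.16 and 2.84 ± 0.12. NOP56, a box C/D particle protein, fell in both lines (-1.08 ± 0.15 in RT112 and -0.75 ± 0.13 in SCaBER). TCOF1, a nucleolar factor of ribosomal RNA transcription, did so too (-1.81 ± 0.27 and -2.06 ± 0.18). In both lines NOP10 (1.00 ± 0.15 in RT112 and 0.46 ± 0.15 in SCaBER), EIF6 (0.44 ± 0.14 and 0.49 ± 0.12) and EMG1 (0.60 ± 0.18 and 0.62 ± 0.15) rose. TAF1C rose in RT112 (1.35 ± 0.29).

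Of 28 initiation factors 2 were higher (7.14%) and 4 lower (14.3%) in RT112, and of 29 in SCaBER 2 were higher (6.90%) and 3 lower (10.3%), again near the shares of all genes. EIF3K fell by 1.21 ± 0.15 and EIF4G2 by 0.91 ± 0.12 in RT112, and EIF4G2 by 0.50 ± 0.10 and EIF4A2 by 0.53 ± 0.15 in SCaBER. EIF2B5 rose in both (1.27 ± 0.18 and 0.74 ± 0.17), as did EIF2S2 (0.39 ± 0.12 and 0.40 ± 0.11). Of the regulators of growth signalling 4 of 17 rose and 6 fell in RT112, and 2 of 16 rose and 5 fell in SCaBER. DDIT4 fell by 2.13 ± 0.19 and DEPTOR by 2.86 ± 0.46 in RT112, where TSC1 (1.17 ± 0.23) and AKT1S1 (1.09 ± 0.23) rose. In SCaBER EIF4EBP2, a repressor of cap-dependent initiation, fell by 1.23 ± 0.16 and MAX, the partner of MYC, by 0.92 ± 0.15, and SESN2 (1.28 ± 0.20) and TSC1 (0.88 ± 0.23) rose. EIF4EBP2 (-0.74 ± 0.18) and SESN2 (1.14 ± 0.28) were also called in RT112. Of 8 chaperones and modifiers of ribosomal proteins 1 passed with siFOXA1, GRWD1 in SCaBER (-0.94 ± 0.21).

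When a ZBED2 siRNA was added to siFOXA1 in SCaBER, 7 of the 55 ribosome biogenesis genes rose with siZBED2-1 (12.7%, against 1.35% of all genes) and 6 with siZBED2-2 (10.9%, against 2.25%), with medians of 0.21 and 0.22, among them RRP12 (1.45 ± 0.29 with siZBED2-1), FBL (0.74 ± 0.16 and 0.94 ± 0.16) and TCOF1 (1.16 ± 0.18 with siZBED2-2), and NPM1 rose by 0.79 ± 0.11 and 0.83 ± 0.11. Limma on log2(TPM + 1) called 0 and 4 of them, with 12 and 19 at an unadjusted p below 0.05. In RT112 edgeR called 0 of the 55 with either siRNA, with 10 and 5 at an unadjusted p below 0.05. All of those 10 were lower, as were those 5 except BOP1 (0.63 ± 0.28). DESeq2 called 2 lower and 0, and limma 0. The medians were -0.13 and 0.01, beside medians of the 76 members of 0.43 and 0.34. The difference between the lines in these genes was not tested.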

How the data were processed

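Total RNA was extracted (RNeasy) and 3′ libraries were made with the Lexogen FWD kit. Per the labels and deposited pipeline settings, the authors used TrimGalore 0.6.2 for trimming (quality of at least 20, at least 10 bases kept), STAR 2.6.1a for alignment to hg38, and the genes of GENCODE release 29. The deposited count table holds raw whole-number counts per gene. The authors' deposited TPM table served one alternative. No molecular identifiers are stated.

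Genes were filtered with filterByExpr (minimum count 10, minimum total 15), scaled by TMM and tested with edgeR 4.0.16 (glmQLFit, glmQLFTest, two-sided) on all 6 groups of a line, or on both lines together, in R 4.3.3. Benjamini-Hochberg adjustment ran over all tested genes with a threshold of 0.05. The SE of a log2 fold change was its size divided by the square root of F. CPM are TMM-scaled counts for a library total of 1000000. The fit was tested on simulated data.

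The replicate number, a batch in the labels, was taken as a pairing for the blocked alternative. Over 15 pairs of groups the mean correlation of same-numbered deviations was 0.03 in each line, and 0 exceeded 0.1. Within groups, the chi-square per gene between replicates was 6.07 to 22.1, above sampling noise. It was highest for RT112 siZBED2-2 and next highest, at 10.9, for RT112 siControl. Mitochondrial transcripts took 16.4% and 8.22% of counts in the siZBED2-2 libraries of RT112.

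The members, lists and tests were chosen with earlier results of these data known. Named genes were, for siFOXA1 and each ZBED2 siRNA, the 5 members called in each direction with the smallest p whose libraries did not overlap, plus a list of 15 members, and from other lists 2 in each direction. Others named were chosen after their values were seen. Alternatives were RLE size factors, library size alone, TMM without the members, no low-count filter, DESeq2 1.42.0, limma 3.58.1 on log2(TPM + 1), the replicate block, only the groups compared, and leaving out each library. Results of a few genes are not reported here.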

Additional observations from a re-analysis of the deposited data

Results flagged for a closer look

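In the joint fit of both lines, the response to siFOXA1 differed between RT112 and SCaBER for 4 members, by a test of the difference itself. The log2 difference (SCaBER minus RT112) was 0.67 for RPS27A, 0.77 for RPS12, 0.62 for RPS6 and 0.66 for RPL14, and the count was 0 in limma on log2(TPM + 1), where 29 members had an unadjusted p below 0.05, and 13 in DESeq2.

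The response to siFOXA1 differed with and without a ZBED2 siRNA, tested as an interaction, for 4 members in RT112 and 2 in SCaBER. In RT112 the differences were 0.79 for RPS6, 0.71 for RPL10A, 0.70 for RPL12 and 0.65 for RPS4X. In SCaBER they were 1.09 for RPS2 and 0.53 for RPL23A. In RT112 the count was 0 in limma on log2(TPM + 1), with 21 members at an unadjusted p below 0.05, and 21 in DESeq2.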

How the results depend on the processing

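With other settings no named member whose change was called turned its direction. RPS2 with siFOXA1, on siControl and on siZBED2, and RPLP0 with siZBED2-1 alone stayed past the threshold in both lines in every fit run. The numbers of members called by limma on log2(TPM + 1) were, in RT112, 9 for siFOXA1 on siZBED2, 1 for siZBED2-1 alone, and 0 for siZBED2-2 alone, for either ZBED2 siRNA on siFOXA1, between the ZBED2 siRNAs and for the interaction (with 1, 40, 44, 9 and 21 members at an unadjusted p below 0.05). In SCaBER they were 7 for siFOXA1 on siZBED2, 2 and 3 for siZBED2-1 and siZBED2-2 on siFOXA1, 1 for the interaction and 0 for siZBED2-2 alone and between the ZBED2 siRNAs (2 and 5 at an unadjusted p below 0.05), and 0 for the difference between lines (29). Limma called 37 members higher in SCaBER and 3 higher in RT112 with siControl. With the replicate number as a block, the pairing gave 5 members for siZBED2-1 alone, 21 for siZBED2-2 on siFOXA1 and 15 for the interaction in RT112. In SCaBER the block gave 25 for siFOXA1 on siZBED2, 19 for siZBED2-1 on siFOXA1, 5 between the ZBED2 siRNAs and 7 for the interaction, and it gave 10 for the difference between lines. It moved no other count by over 1.5 times, and of the genes named it added the calls of RPL5 with siFOXA1 in RT112, of RPS19 on siZBED2 in both lines and of RPLP1 on siZBED2 in SCaBER. DESeq2 called 6 for siZBED2-1 alone, 2 for siZBED2-2 alone, 27 for siZBED2-2 on siFOXA1 and 21 for the interaction in RT112, 17 for siZBED2-1 on siFOXA1 and 7 for the interaction in SCaBER, and 13 for the difference between lines. With only the groups compared the counts were 22 and 7 for siZBED2-1 and siZBED2-2 on siFOXA1 and 2 between the ZBED2 siRNAs in RT112, 8 for siFOXA1 alone, 1 for siZBED2-2 alone and 3 for siZBED2-2 on siFOXA1 in SCaBER, and 2 for the difference between lines. With no low-count filter they were 19 for siZBED2-2 on siFOXA1 and 14 for the interaction in RT112, 4 between the ZBED2 siRNAs in SCaBER and 7 for the difference between lines. The interaction was called for 2 members in RT112 and 5 in SCaBER with library size alone, and for 1 in SCaBER with RLE size factors. The cause of these differences was not tested.

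Leaving out each library in turn gave, in RT112, 18 to 30 members for siFOXA1 alone, 6 to 15 for siFOXA1 on siZBED2, 1 to 3 and 0 to 1 for siZBED2-1 and siZBED2-2 alone, 10 to 37 and 1 to 16 for these on siFOXA1, 1 to 2 between them and 0 to 14 for the interaction. In SCaBER it gave 9 to 12, 8 to 15, 1 to 2, 1 to 2, 3 to 10, 3 to 5, 0 to 1 and 1 to 3 in the same order, 22 to 27 for the lines with siControl and 1 to 8 for the difference between lines. An arm then held 1 library, which is assumed to vary like the other groups. Depth limited RPL17, which held 0 to 28 counts per library.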
